A study of Homo sapiens with 4 samples.

Results

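The plasminogen activators, matrix metalloproteinases and their inhibitors examined here are 9 genes, PLAU, PLAUR, PLAT, SERPINE2, MMP1, MMP2, MMP3, MMP14 and TIMP1. They were taken by symbol from a table of read counts with 56303 genes, and all 9 were found in it. The table covers 4 RNA sequencing libraries of EJ and T24T, a pair of human cell lines labelled as bladder cancer. Each line gave 1 library after transfection with hsa_circ_0008399, a circular RNA (here called circ), and 1 after transfection with vector. The series was designed to look for genes downstream of that circular RNA. Each group is thus a single library, so a difference within a line has no replicate check, and the labels do not say whether cultures were separate or pooled. EJ and T24 are recorded in cell line registries as sharing an origin, and T24T is a derivative of T24, so the lines are related and not independent tumours.

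Total counts ran from 14703455 to 18057768 per library. Markers of the cell type were checked first. The keratin genes KRT7, KRT8 and KRT18 were abundant, whereas UPK3A, the uroplakin of superficial urothelial cells, and the basal keratin gene KRT5 had 0 counts in all 4 libraries. GATA3 had at most 1 count in any library, and the 8 luminal urothelial markers summed to 7.21 to 8.44 CPM, which is counts scaled to the library total. The 10 epithelial and basal markers summed to 1239 and 1409 CPM in EJ vector and circ and to 2580 and 2509 in T24T. Most of that sum came from KRT7, KRT8, KRT18 and CD44. CDH1, KRT14 and TP63 had at most 3 counts in any library, KRT19 at most 4, and EPCAM had 7 and 4 in EJ. The summed level of 8 fibroblast and stromal markers, cells that often supply these proteases in tumours, was 1.43 to 3.16 CPM, with DCN and LUM at 0. For 6 leukocyte markers the sum was 0.055 to 0.192 CPM, with PTPRC at 0, and for 5 endothelial markers it was 0.136 to 0.886. In such bulk libraries fewer cells making an mRNA and less of it per cell cannot be told apart.

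As background, cells open a path through matrix with linked protease systems. Urokinase (PLAU) and tissue plasminogen activator (PLAT) turn plasminogen into plasmin, urokinase mostly while bound to its surface receptor (PLAUR), and serpins such as protease nexin-1 (SERPINE2) block both activators. Matrix metalloproteinases are made as inactive zymogens. MMP14 sits in the plasma membrane and activates pro-MMP2, MMP1 cleaves fibrillar collagen, MMP3 activates other zymogens, and TIMP1 inhibits most secreted members. Urokinase and its receptor are long-studied markers of invasive bladder cancer.

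Of the 9 genes, 6 had enough reads to be tested and 3 did not. Sequences upstream of the annotated starts, from the RefSeq promoter table (GRCh38.p14), are shown for PLAU, PLAUR and TIMP1, which changed with circ, and for MMP14, which had the highest log2 fold change of the 6 between the lines. Windows of that table were used for 5 of the 9 genes, and PLAT, which also changed with circ, was left out of this search. The stretches read 5′ to 3′ on the gene's strand, and capitals mark matches to the AP-1 motif TGANTCA or the GC box GGGCGG, each searched on both strands.
PLAU (chr10:73910882-73911103, plus strand): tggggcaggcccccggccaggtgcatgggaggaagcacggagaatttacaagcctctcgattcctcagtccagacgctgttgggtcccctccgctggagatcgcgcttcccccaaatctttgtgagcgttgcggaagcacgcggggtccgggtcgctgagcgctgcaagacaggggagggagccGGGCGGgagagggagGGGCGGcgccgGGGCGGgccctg
PLAUR (chr19:43670337-43670366, minus strand): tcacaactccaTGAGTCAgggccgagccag
MMP14 (chr14:22836335-22836556, plus strand): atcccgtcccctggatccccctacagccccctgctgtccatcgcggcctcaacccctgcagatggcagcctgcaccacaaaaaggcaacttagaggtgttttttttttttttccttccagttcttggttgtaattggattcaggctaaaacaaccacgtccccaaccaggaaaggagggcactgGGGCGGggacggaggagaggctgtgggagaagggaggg
TIMP1 (chrX:47582186-47582312, plus strand): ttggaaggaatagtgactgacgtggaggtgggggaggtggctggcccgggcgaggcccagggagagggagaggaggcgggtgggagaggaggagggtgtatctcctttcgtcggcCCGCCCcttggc
Within 250 bases upstream of the RefSeq start, PLAUR was the 1 gene of these 5 with an AP-1 match, which lies 180 to 186 bases before the start. Only the 30 bases around that match are shown, because a longer annotated transcript makes the window exonic. Such a match occurs in 6.57% of the 35116 windows in the table. The downstream one of PLAU's pair of windows holds 3 GC boxes, 35 to 66 bases before the start, and its upstream window holds 0. MMP14 has 1 GC box, TIMP1 has 2, of which the stretch outside exons shows 1, and the SERPINE2 windows have 1 and 2, against 42.6% of all windows with at least 1. None of the 7 windows holds TATAAA, a motif found in 10.7% of all windows. These matches describe letters and say nothing of binding.

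Levels were compared between genes per length, as RPKM (counted reads scaled by gene length and library total, deposited by the authors). PLAU (chromosome 10, 73909177 to 73917497, hg38) was the most abundant of the 9 in every library. Its RPKM in EJ was 59.8 with vector and 50.8 with circ, and in T24T it was 217 with vector and 139.7 with circ. These levels lay above those of 95.6% to 99.1% of the genes with reads in each library. PLAU alone made up 56.5% to 70.3% of the summed RPKM of the 9 genes.

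PLAUR (chromosome 19, 43646095 to 43670547) followed, at 16.9 RPKM with vector and 21.1 with circ in EJ, and 41.1 and 48.6 in T24T. TIMP1 (chromosome X, 47582313 to 47586789) had 20.3 RPKM with vector and 16.3 with circ in EJ, and 26.6 and 20.4 in T24T. In EJ these neighbours changed places, with TIMP1 above PLAUR in vector and below it in circ, while in T24T PLAUR was the higher in both libraries. Together the urokinase, its receptor and the metalloproteinase inhibitor exceeded every other member in each library.

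The remaining levels depended on the line. MMP14 (chromosome 14, 22836557 to 22849027) had 0.201 and 0.335 RPKM in EJ vector and circ, and 12.2 and 8.76 in T24T vector and circ. PLAT (chromosome 8, 42175233 to 42207724) had 0.290 and 0.205 RPKM in EJ and 10.9 and 6.79 in T24T. For both genes, the T24T libraries lay far above both EJ libraries, and within EJ their order was PLAT over MMP14 in vector and the reverse in circ. SERPINE2 (chromosome 2, 223975112 to 224039319) was low throughout, at 1.03 and 1.05 RPKM in EJ and 0.654 and 0.579 in T24T.

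The secreted metalloproteinases of the set were at or near 0. MMP2 (chromosome 16, 55389700 to 55506691), which encodes the gelatinase that MMP14 activates, had 0 counts in all 4 libraries, where 3 counts would have been 0.0337 to 0.0414 RPKM. MMP3, stromelysin-1 (chromosome 11, 102835801 to 102843803), had 0 and 2 counts in EJ and 2 and 3 in T24T. MMP1, interstitial collagenase (chromosome 11, 102789920 to 102798160), had 1 and 0 counts in EJ and 10 and 6 in T24T. None of the 3 reached the minimum for testing, which was 10 counts in 1 library and 20 over the 4.

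**Figure D1:**
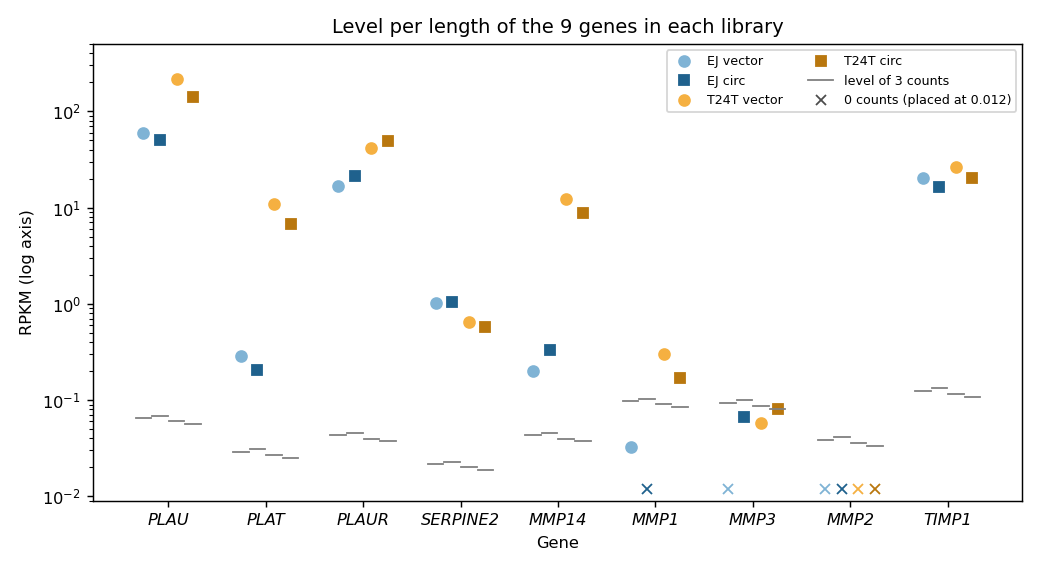
RPKM (log axis) of the 9 genes in each library, with 1 point per library and no error bar because each group is 1 library. Grey ticks mark the level of 3 counts, crosses mark 0 counts. PLAU sits highest in every library, PLAT and MMP14 part the lines, and MMP1, MMP2 and MMP3 are lowest in every library, with at most 10 counts in any library.

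Genes on the opposite strand overlap MMP1 and PLAU. WTAPP1, a pseudogene on the opposite strand, shares 150 exonic bases with MMP1, 51 in coding exon 6 (102795174 to 102795224) and 99 in exon 1 (102798024 to 102798122). Its counts were 1 and 0 in EJ and 10 and 6 in T24T, identical to those of MMP1 in each library. The use of strand in the counting is not given in the sources used here, so reads of MMP1 and of WTAPP1 cannot be told apart. C10orf55, opposite PLAU, shares 916 bases with it, 31.1% of the counted PLAU length. It had 26.8% to 27.0% of the PLAU count in every library, so the share was alike in the 4 libraries, and reads of this pair cannot be told apart either.

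Circ was compared with vector over both lines with the edgeR quasi-likelihood test, with line as a block and Benjamini-Hochberg adjustment over all 17689 genes tested. A gene rose or fell here where the adjusted p was under 0.05. PLAUR rose, PLAU, PLAT and TIMP1 fell, and SERPINE2 and MMP14 did not pass. That is 4 of the 6 tested members, 1 up and 3 down, against 12.7% of all genes called, 7.13% higher and 5.56% lower. The median log2 fold change of the 6 was -0.34, against 0.0018 for all genes. In size, 0 of the 6 differed 2-fold within EJ, where 3.83% of all tested genes did (2.26% higher and 1.57% lower), and 0 of the 6 within T24T, where 3.91% did (2.52% higher and 1.39% lower). KRT7 also rose with circ, as 1 of 5 tested epithelial and basal markers, and the other 4 did not pass. The log2 fold changes of those 4 were 0.03 (KRT8), 0.04 (KRT18), -0.19 (EPCAM) and -0.10 (CD44). The part of cell state in the values of the 6 members was not tested.

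In EJ, PLAU had 2760 counts with vector and 2202 with circ, and in T24T it had 10779 with vector and 7441 with circ. Circ was the lower library in each line, and the drop was steeper in T24T. Counts scaled by library gave a 1.17-fold lower level in EJ circ (95% exact counting interval 1.11 to 1.24) and a 1.53-fold lower level in T24T circ (1.48 to 1.57). Over both lines the log2 fold change of PLAU was -0.42 ± 0.09 (2 lines, edgeR adjusted p = 0.00133). Here and below, ± is a standard error worked back from the edgeR test statistic. Its spread is mostly pooled over genes and is not that of the 2 lines. The log2 ratio was -0.23 in EJ alone and -0.61 in T24T alone, and this gap was not tested. Such log2 ratios include a prior count of 2, which draws those of low genes towards 0, whereas the folds do not. PLAU was also the 1 member that DESeq2 called (adjusted p = 0.0262).

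PLAUR, the urokinase receptor, went the other way. Its counts with vector and circ were 1175 and 1384 in EJ and 3086 and 3913 in T24T, so circ was the higher library in each line. The level was 1.26-fold higher in EJ (1.17 to 1.36 from counting error) and 1.20-fold higher in T24T (1.15 to 1.26). PLAUR rose by 0.30 ± 0.08 on the log2 scale (edgeR adjusted p = 0.0161), with log2 ratios of 0.33 and 0.27 in EJ and T24T. DESeq2 did not call it (adjusted p = 0.219).

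With PLAU lower and PLAUR higher, their ratio per length, which no library scaling can alter, was smaller in circ. PLAU over PLAUR was 3.55 with vector and 2.40 with circ in EJ, and 5.28 and 2.87 in T24T. Circ was below vector in both lines.

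PLAT, tissue plasminogen activator, had 30 counts with vector and 20 with circ in EJ, and 1215 and 811 in T24T. Both circ libraries were lower, but the EJ counts are few: PLAT was 1.40-fold lower in EJ circ with a counting interval from 0.77 to 2.61, and 1.58-fold lower in T24T circ (1.44 to 1.73). The log2 fold change of PLAT was -0.64 ± 0.13 (edgeR adjusted p = 0.00101), and the log2 ratio was -0.45 within EJ, -0.66 within T24T. Its adjusted p was 0.114 in DESeq2.

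TIMP1, the inhibitor, had 490 counts with vector and 369 with circ in EJ, and 690 and 569 in T24T. Its level was lower in circ by a similar factor in each line, 1.24-fold in EJ (1.08 to 1.43) and 1.28-fold in T24T (1.14 to 1.43). TIMP1 fell (log2 value -0.33 ± 0.10, edgeR adjusted p = 0.0306), and DESeq2 gave an adjusted p of 0.378. Both activators and this inhibitor were thus among the genes that fell.

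MMP14, the membrane-bound metalloproteinase, had 14 counts with vector and 22 with circ in EJ, and 921 and 706 in T24T. The lines disagreed: circ was higher in EJ, at 1.68-fold with a counting interval from 0.82 to 3.55, and 1.37-fold lower in T24T (1.25 to 1.52). The combined value of -0.35 ± 0.15 did not pass (edgeR adjusted p = 0.125) and was 0.04 in DESeq2. Limma-voom called it lower (adjusted p = 0.0451).

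SERPINE2 had 143 counts with vector and 137 with circ in EJ, and 98 and 93 in T24T. Its log2 fold change was -0.05 ± 0.17 (edgeR adjusted p = 0.900). In single lines the fold was 1.02 (0.80 to 1.30) in EJ and 0.90 (0.67 to 1.21) in T24T, and both counting intervals include a fold of 1.

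**Figure D2:**
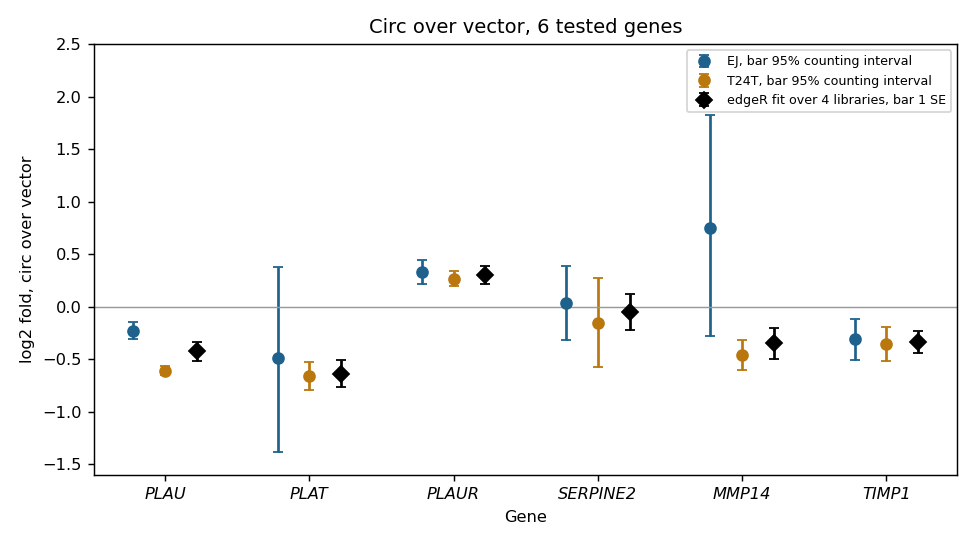
Log2 fold of circ over vector for the 6 tested genes, with EJ and T24T as circles (bars, 95% exact counting interval) and the edgeR estimate over the 4 libraries as diamonds (bars, 1 SE). PLAU, PLAT and TIMP1 lie below 0 in both lines, PLAUR lies above 0 in both, and MMP14 lies on opposite sides with a wide bar in EJ.

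These calls depend on the model. With line as a block 1 residual degree of freedom remains, and the spread is mostly pooled over genes. Without the line as a block edgeR called 0 of the 6 members, also at an unadjusted p under 0.05.

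The wider proteolytic network was described with 6 lists holding 112 genes, of which 61 could be tested and 29 had 0 counts in all libraries. With circ, 2 of the 61 rose and 12 fell by the edgeR test, with a median log2 fold change of -0.06, against 7.13% higher and 5.56% lower of all genes tested. In the plasminogen activation list 18 of 26 genes were tested, and PLAUR alone rose by edgeR while 5 fell. Besides PLAU and PLAT these were MRC2, LRP1 and ANXA2, the last named after its value was seen. MRC2, a collagen-uptake receptor that associates with the urokinase receptor, had 1785 and 996 counts in EJ and 3317 and 2433 in T24T and fell (log2 value -0.63 ± 0.09, edgeR adjusted p = 5.925e-06). LRP1, an endocytic receptor that clears protease complexes, fell (log2 value -0.34 ± 0.11, edgeR adjusted p = 0.0380), and EJ alone gave -0.67 where T24T gave -0.07. ANXA2, a plasminogen-binding annexin, fell (log2 value -0.23 ± 0.08, edgeR adjusted p = 0.0490). With the stricter count minimum of 50 in each line, LRP1 and ANXA2 no longer passed (edgeR adjusted p = 0.0856 and 0.0686). DESeq2 called PLAU and MRC2 in this list. ENO1 and S100A10, both plasminogen binders and the genes of the list with the highest RPKM averaged over the 4 libraries, had values of -0.09 and -0.03 and did not pass.

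Among 23 matrix metalloproteinase genes, 11 had 0 counts in all libraries and 7 were tested. EdgeR called 0 of the 7 for circ, against 12.7% of all genes tested, and 1 of the 7 had an unadjusted p under 0.05 (MMP14). DESeq2 called 0 and limma-voom 1. The list of their inhibitors and activators had 3 falls among 7 tested genes, TIMP1, TIMP2 and FURIN, and 0 rises. Of all genes tested, 5.56% fell and 7.13% rose. TIMP2, which inhibits metalloproteinases and also bridges pro-MMP2 to MMP14, had 585 and 380 counts in EJ and 1753 and 1496 in T24T and fell (log2 value -0.40 ± 0.09, edgeR adjusted p = 0.00389). FURIN, the convertase that trims pro-MMP14, had 632 and 474 counts in EJ and 925 and 742 in T24T and fell (log2 value -0.36 ± 0.10, edgeR adjusted p = 0.0122). DESeq2 called 0 of these 3 falls.

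T24T was compared with EJ in the same fit, with transfection as the block, because the lines set the baseline of the system. All 6 tested members differed, 5 higher in T24T and SERPINE2 lower, against 41.4% of all genes, 21.9% higher and 19.5% lower. The median log2 fold change of the 6 was 1.52, against 0.01 for all genes. The 4 members PLAU, PLAUR, PLAT and MMP14 were over 2-fold higher in T24T in vector and in circ libraries, where 14.2% (9.46% higher, 4.77% lower) and 13.8% (9.98% higher, 3.79% lower) of all tested genes differed 2-fold. The epithelial markers KRT8, KRT18, EPCAM and CD44 were also higher in T24T and KRT7 was lower. EPCAM reached the 10 counts needed for testing only in T24T (7 and 4 counts in EJ, 117 and 111 in T24T). The part of cell state in the differences of the 6 members was not tested.

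MMP14 and PLAT stood apart by size. MMP14 was 63.4-fold higher in T24T between the vector libraries (37.6 to 116.5 from counting error) and was 27.5-fold higher between the circ libraries (17.99 to 44.1). PLAT was 39.1-fold higher (27.2 to 58.1) in vector and 34.7-fold higher (22.3 to 57.1) in circ libraries. Over both pairs the log2 fold changes were 5.35 ± 0.19 for MMP14 (edgeR adjusted p = 1.2e-21) and 5.21 ± 0.16 for PLAT (edgeR adjusted p = 2.8e-23). Neither T24T library overlapped an EJ library for these genes, and the share of all genes separated in this way is not given here. Between the lines, edgeR called 41.4% of all genes tested.

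The abundant urokinase pair differed less. PLAU was 3.77-fold higher in T24T vector (3.61 to 3.93) and 2.89-fold higher in T24T circ (2.76 to 3.03), with a log2 fold change of 1.72 ± 0.09 (edgeR adjusted p = 8.17e-17). PLAUR was 2.53-fold higher (2.37 to 2.71) and 2.42-fold higher (2.28 to 2.57), at 1.31 ± 0.09 (edgeR adjusted p = 2.32e-14).

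The inhibitors TIMP1 and SERPINE2 differed least of the 6. TIMP1 was higher in T24T by 0.42 ± 0.10 on the log2 scale (edgeR adjusted p = 0.00139), and SERPINE2 was lower, at -0.69 ± 0.17 (edgeR adjusted p = 0.00144). DESeq2 called neither, with adjusted p of 0.114 and 0.147. TIMP1 exceeded MMP14 per length 101.4-fold in EJ vector and 48.6-fold in EJ circ, but 2.17-fold in T24T vector and 2.33-fold in T24T circ.

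**Figure D3:**
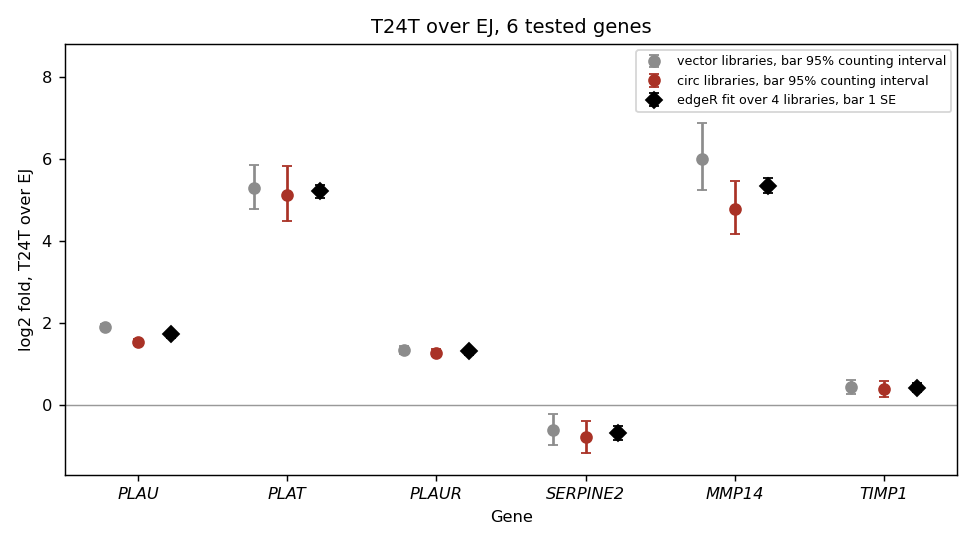
Log2 fold of T24T over EJ for the 6 tested genes, between vector libraries and between circ libraries (circles, with bars for the 95% exact counting interval) and as the edgeR estimate over the 4 libraries (diamonds, with bars for 1 SE). PLAT and MMP14 lie highest, with edgeR estimates of 5.21 and 5.35, PLAU and PLAUR between 1 and 2, TIMP1 just above 0, and SERPINE2 below 0.

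Other members of the network also differed between the lines. Of 18 tested plasminogen activation genes, 9 were higher in T24T and 3 lower (7 and 1 in DESeq2), against 21.9% higher and 19.5% lower of all genes tested. SERPINB8, an intracellular serpin, was higher by 1.31 ± 0.20 (edgeR adjusted p = 2.23e-06), and TFPI and TFPI2, Kunitz-type protease inhibitors, were lower, at -0.35 ± 0.09 and -0.24 ± 0.08. Of 7 tested metalloproteinases, 4 were higher and 1 was lower (2 and 1 in DESeq2). MMP11 had 0 counts in both EJ libraries and 14 and 13 in T24T. With EJ set to 3 counts per library it was 4.50-fold and 3.71-fold higher. The counting intervals reach down to 3.20-fold (vector) and 2.61-fold (circ). MMP15, another membrane-bound member, was higher by 1.60 ± 0.21 and MMP16 was lower, at -3.27 ± 0.39, from 54 and 53 counts in EJ to 6 and 6 in T24T. MMP11 reached the 10 counts needed for testing only in T24T, and MMP16 only in EJ. Among 7 tested inhibitors and activators, 4 were higher and 1 was lower (3 and 0 in DESeq2). TIMP2 (1.64 ± 0.09) and the convertase genes PCSK6 (2.48 ± 0.30) and FURIN (0.46 ± 0.10) were higher, and PCSK7 (-0.48 ± 0.11) was lower. All these genes passed the edgeR test, but DESeq2 did not call TFPI2 (adjusted p = 0.187) or PCSK7 (adjusted p = 0.0544). Of the 4 metalloproteinases higher by edgeR, DESeq2 called MMP14 and 1 other, so at least 1 of MMP11 and MMP15 was not called. Without the block edgeR did not call TFPI, TFPI2 or FURIN (adjusted p = 0.155, 0.334 and 0.116). Each ± is the standard error of its log2 fold change.

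**Figure D4:**
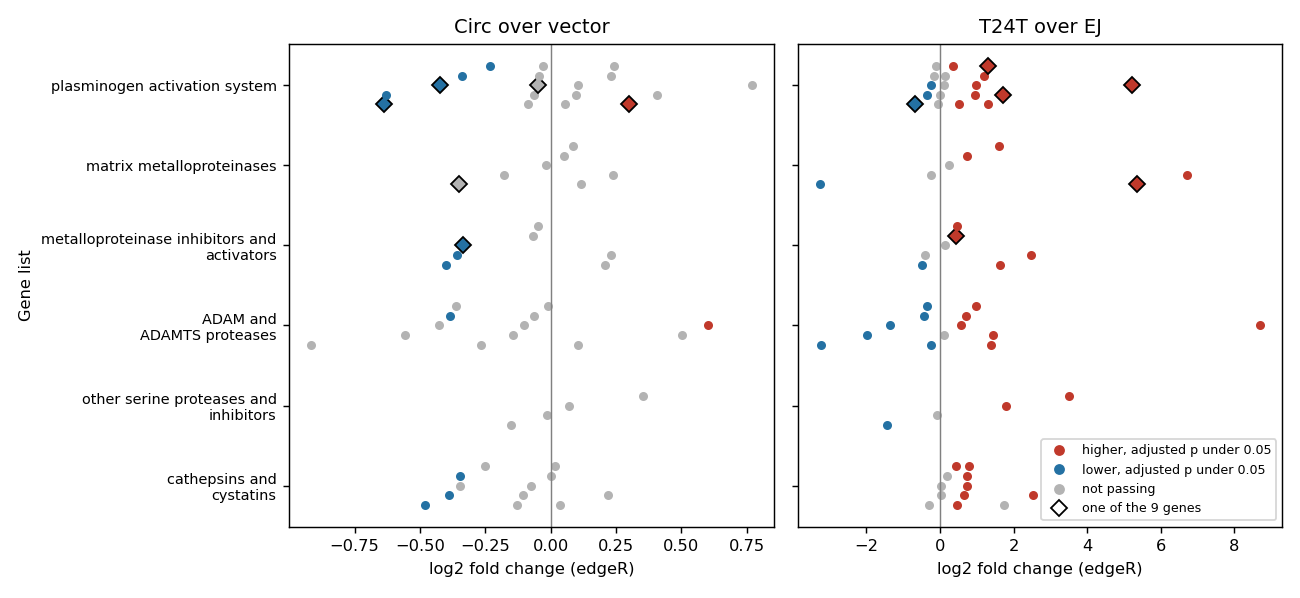
Log2 fold change from edgeR for the 61 tested genes of 6 proteolysis lists, for circ over vector (left) and T24T over EJ (right), with vertical spread within a list only to part the points. Diamonds are genes of the 9, red and blue mark adjusted p under 0.05. Circ gave 12 lower and 2 higher calls, and T24T over EJ gave 32 higher and 12 lower. Of the genes called between the lines, MMP11, ADAM8 and HTRA1 reached 10 counts only in T24T, and MMP16 and ADAM12 only in EJ.

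For the pattern over the 4 libraries, each tested member was compared with the genes that had at least 50 counts in every library. Likeness was the Euclidean distance between log2 counts, scaled by TMM with a prior count of 2, after each gene's mean over the 4 libraries was removed. C10orf55, whose exons overlap PLAU, was closest to it (0.0099), then CD82 (0.122). PLAUR was nearest to ETS1 (0.0755) and ZHX2 (0.110), TIMP1 to LIMD1 (0.031) and RPS24 (0.0336), and SERPINE2 to HSPA14 (0.0207) and ZNF786 (0.0404). PLAT and MMP14 had no close match among these candidates. CXCL8 (0.425) was nearest to PLAT and PTX3 (0.522) to MMP14, with CXCL1 the next for both (0.704 and 0.592). In EJ, PLAT (30 and 20 counts) and MMP14 (14 and 22) did not reach that minimum themselves. Genes as low in EJ as these were thus left out of the search, so a closer match among them cannot be seen. Among members, MMP14 and PLAT were the closest pair (0.822), followed by PLAU and PLAUR (0.845). With 4 points per gene and at least 11880 candidates, such likeness is a description only.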

How the data were processed

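RNA was sequenced from 4 libraries, 1 per group. The authors deposited read counts per gene for 56303 genes and RPKM for 29817 genes. Trimmomatic, HISAT2 and hg38 are named in the submitters' processing notes. The counting tool, annotation and strand setting are not given in the sources used here. The deposited RPKM equalled the count over gene length and library total in 100% of values (relative tolerance 1e-06). Columns were matched to samples by description, where T24 stands for T24T. Gene spans come from the count table and exon annotation from GENCODE.

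Genes with 10 or more counts in 1 library and 20 or more in all were kept (17689), scaled by TMM and tested with edgeR 4.0.16 (R 4.3.3) on terms for line and transfection, with 30.5 prior degrees of freedom and a common biological coefficient of variation of 0.0704. Line was the block because libraries of 1 line belong together. P-values measure only the spread between these libraries, and that spread is mostly pooled over genes. They do not measure each gene's own spread. Ratios within a line used a prior count of 2. Each fold has an exact binomial interval (95%) for counting error alone. It treats reads as independent and can be too narrow, since reads without molecular identifiers are not independent molecules. The fit was tested on simulated data with the same circ effect in both lines. Such data cannot show how it treats lines that respond differently. Alternatives were RLE and library-size scaling, other filters, prior counts of 0.5 and 10, DESeq2 1.42.0, limma 3.58.1 (voom, and log2 RPKM with pseudocounts of 1 and 0.1), no block, and single lines. Members and gene lists were chosen with earlier results of these data known. Named genes were all members, from each list at most 4 per direction passing the test for circ and 3 for line by size, the pair with the highest RPKM, and for each member the 2 genes nearest in pattern. Values of 1 listed gene are not reported here.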

Additional observations from a re-analysis of the deposited data

Results flagged for a closer look

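In 2 of the 6 tested members the EJ circ library differed from its vector in one direction and the T24T circ library in the other. With 1 library per group this difference between lines was not tested. For MMP14, the log2 ratio of circ over vector was 0.68 in EJ and -0.46 in T24T, a difference of -1.13, and the EJ value comes from 14 and 22 counts with a counting interval of the fold from 0.82 to 3.55. For SERPINE2 the ratios were 0.03 and -0.15, a difference of -0.18, and both counting intervals include a fold of 1.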

How the results depend on the processing

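With RLE scaling, library size alone, no filter or limma-voom, the counts of calls over all genes, the 9 genes and the 6 lists together stayed within 1.5 times their values. In single lists, limma-voom called 2 plasminogen activation genes higher with circ and 1 metalloproteinase lower. Requiring 50 counts in each line removed PLAT and MMP14 and left 3 members and 21 list genes higher in T24T. Without the replicate block (line or transfection dropped) there were 0 rises and 0 falls for circ (246 and 151 genes at an unadjusted p under 0.05), so 0 members and 0 list genes, and for T24T 1944 genes higher and 1248 lower, with 7 list genes lower. DESeq2 called 181 rises and 153 falls for circ, with 0 members and 0 list genes up and 1 member and 2 list genes down, and for T24T 1776 genes higher, 1441 lower and 0 members lower. Limma on log2(RPKM + 1) called 0 rises and 0 falls for circ (1798 and 1790 unadjusted), with 0 members and 0 list genes, and 2492 genes higher in T24T. Limma on log2(RPKM + 0.1) called 0 and 0 (1848 and 1865 unadjusted), again without members or list genes, and 0 members lower in T24T. MMP14 turned to 0.0359 in DESeq2 and 0.0283 in limma on log2(RPKM + 0.1), and the cause of these shifts in calls and sign was not tested. Scaling moved the all-gene median by under 0.1 on the log2 scale. Leaving out 1 library leaves no residual degree of freedom, so single lines are given as values without a test. Depth limits MMP1, MMP2 and MMP3 in all libraries and PLAT and MMP14 in EJ.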

Other observations

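Beyond the plasmin and metalloproteinase genes, the other protease lists held a few changes with circ. Of 13 tested ADAM and ADAMTS genes, ADAMTS6 rose (0.60 ± 0.18, edgeR adjusted p = 0.0202, from 69 to 99 counts in EJ and 107 to 170 in T24T) and ADAM10, a sheddase of cell surface proteins, fell (-0.39 ± 0.09, edgeR adjusted p = 0.00324). ADAM9 and ADAM17, with the highest RPKM of that list averaged over the 4 libraries, did not pass (-0.06 ± 0.08 and -0.10 ± 0.09). Of 12 tested cathepsin and cystatin genes, 3 fell and 0 rose, against 5.56% and 7.13% of all genes tested: the lysosomal protease genes CTSD (-0.48 ± 0.11, edgeR adjusted p = 0.00223) and CTSA (-0.35 ± 0.10, 0.0134) and the cytosolic cathepsin inhibitor gene CSTB (-0.39 ± 0.10, 0.0108). DESeq2 called 0 genes of either list for circ, but it gave ADAMTS6 (log2 value 0.59 in DESeq2) no adjusted p. The abundant CTSZ and CTSL had 0.03 ± 0.08 and 0.22 ± 0.08 and did not pass. Of 22 other serine protease and inhibitor genes 12 had 0 counts in all libraries, and edgeR called 0 of the 4 tested for circ (0 at an unadjusted p under 0.05, and 0 in DESeq2).

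Between the lines these lists split further. ADAM8, a cell surface metalloprotease gene, had 0 counts in both EJ libraries and 63 and 45 in T24T, at least 20.3-fold and 12.8-fold higher when EJ is set to 3 counts per library. ADAM19 (1.43 ± 0.16) and ADAMTS7 (1.39 ± 0.50) were also higher in T24T, while ADAM12 (-3.23 ± 0.54), ADAMTS15 (-1.995 ± 0.26) and ADAMTS5 (-1.36 ± 0.18) were lower, which made 6 higher and 6 lower calls of 13, against 21.9% higher and 19.5% lower of all genes tested. The ADAMTS7 value rests on the EJ circ library, with 2 counts against 15 in EJ vector and 21 and 27 in T24T: the fold was 1.35 (counting interval 0.66 to 2.82) between vector libraries and 11.6 between circ libraries. SPINT1, an inhibitor of membrane serine proteases, was higher (3.51 ± 0.30), as was HTRA1 (1.78 ± 0.55), and PRSS23 was lower (-1.44 ± 0.09). SPINT2, with the highest RPKM of that list in each library, did not pass. Of 12 tested cathepsin and cystatin genes 7 were higher in T24T and 0 lower by edgeR (6 and 0 in DESeq2), against the same shares of all genes, CTSH (2.54 ± 0.25), the cystatin C gene CST3 (0.79 ± 0.13) and CTSD (0.74 ± 0.11) foremost. ADAM8 and HTRA1 reached the 10 counts needed for testing only in T24T, and ADAM12 only in EJ. DESeq2 did not call ADAM8, ADAMTS7 or HTRA1 (adjusted p = 0.167, 0.257 and 0.304), and without the block edgeR did not call ADAMTS7 or CTSD (adjusted p = 0.182 and 0.0611). Each ± is the standard error of an edgeR log2 fold change.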
